A study of Homo sapiens with 6 samples.

Results

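The genes described here supply and load the peptides that MHC class I molecules show at the cell surface. They are 10 genes, given as a list by function: the regulator NLRC5, the immunoproteasome subunits PSMB8, PSMB9 and PSMB10, the transporter genes TAP1 and TAP2, the peptidases ERAP1 and ERAP2, the loading factor TAPBP, and B2M, the light chain of class I molecules. All 10 were measured, among 18417 genes with a probe set of their own. Expression came from Affymetrix whole-transcript arrays of the human colorectal carcinoma cell line HCT116, grown in serum-supplemented McCoy's medium. There were 3 arrays of a mutant HCT116 derivative with altered DNA methylation and 3 of the parental HCT116 line. The labels name neither the mutated gene nor the number of clones behind the mutant arrays, so effects of the mutation and other differences between the lines cannot be told apart. The labels do not say whether the arrays of a group were separate cultures. The p-values therefore cover the spread between these arrays alone, which may be technical.

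Class I molecules carry short peptides cut from proteins inside the cell. The proteasome cuts the proteins, and interferon replaces its standard catalytic subunits by the immunoproteasome subunits, which change the cutting preference. The TAP1 and TAP2 proteins pump the peptides into the endoplasmic reticulum, ERAP1 and ERAP2 trim them there, and tapasin, the product of TAPBP, holds the empty class I molecule at the transporter until a fitting peptide binds. NLRC5 is a transcriptional coactivator that works at the promoters of many of these genes. Loss of parts of this machinery is well known in colorectal cancer, where it reduces recognition by T cells.

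The peptide loading genes were higher in the mutant line with 1 exception. Of the 10, 9 rose, 0 fell and PSMB10 did not pass the test, against 14.6% of all genes called higher. A call means an adjusted p under 0.05 in limma's test of mutant minus parental log2 values, adjusted by Benjamini-Hochberg over all 33297 probe sets. The called increases ran from 0.25 to 1.01 on the log2 scale, and the median over the 10 genes was 0.49, against 0.00336 over all genes. In all 9 the mutant and parental arrays did not overlap, which held with the mutant higher for 25.3% of all genes. Called increases of at least 1.5-fold were fewer, with ERAP1, TAP1, NLRC5 and ERAP2, or 4 of the 10, against 3.34% of all genes. Since dim probe sets are seldom called, the share among the 11208 genes whose log2 values averaged 7 or more is also given. It was 20.9% called higher, against 7 of the 8 peptide loading genes above that level. These are cultures measured in bulk, so more cells with a transcript and more transcript per cell cannot be told apart.

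**Figure D1:**
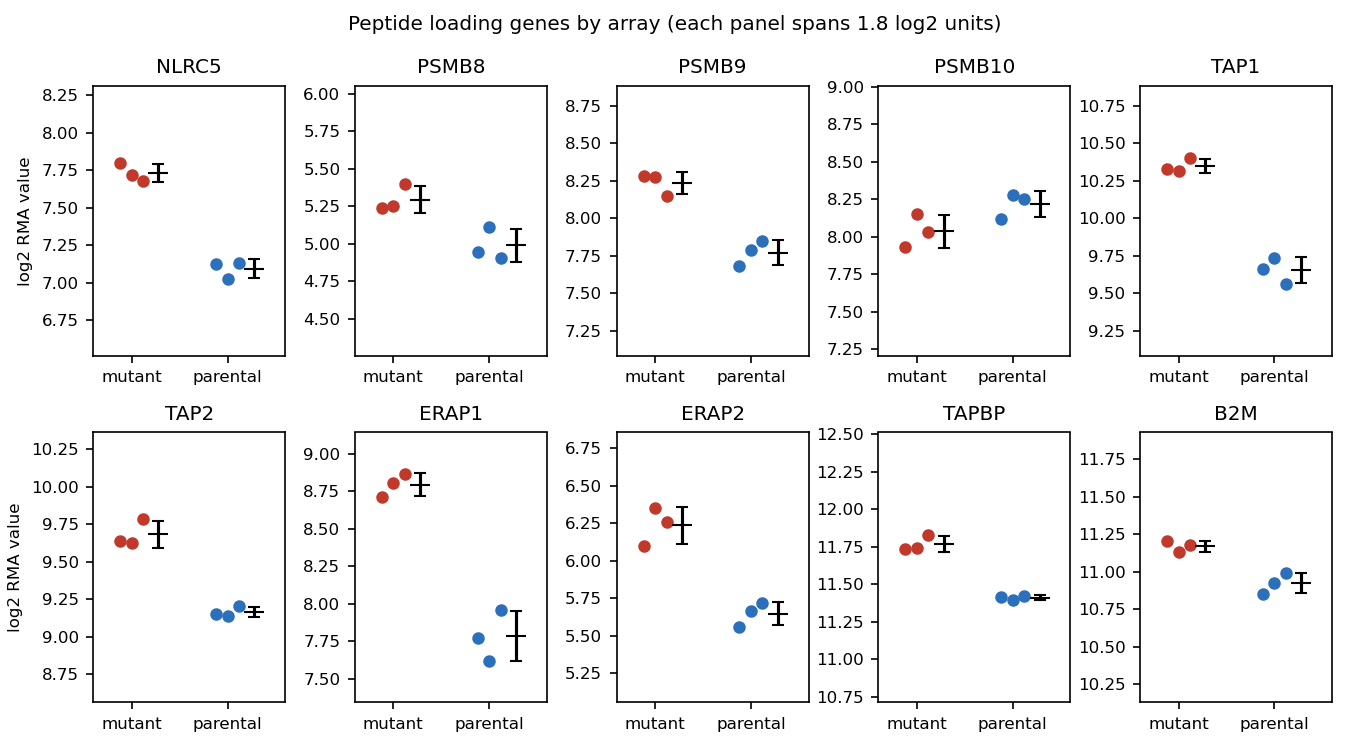
Log2 RMA values of the 10 peptide loading genes, with 1 panel per gene and 1 point per array (mutant left, parental right); bars give the mean and SD of 3 arrays. All mutant points lie above all parental points except in the PSMB10 panel, where the groups overlap.

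**Figure D2:**
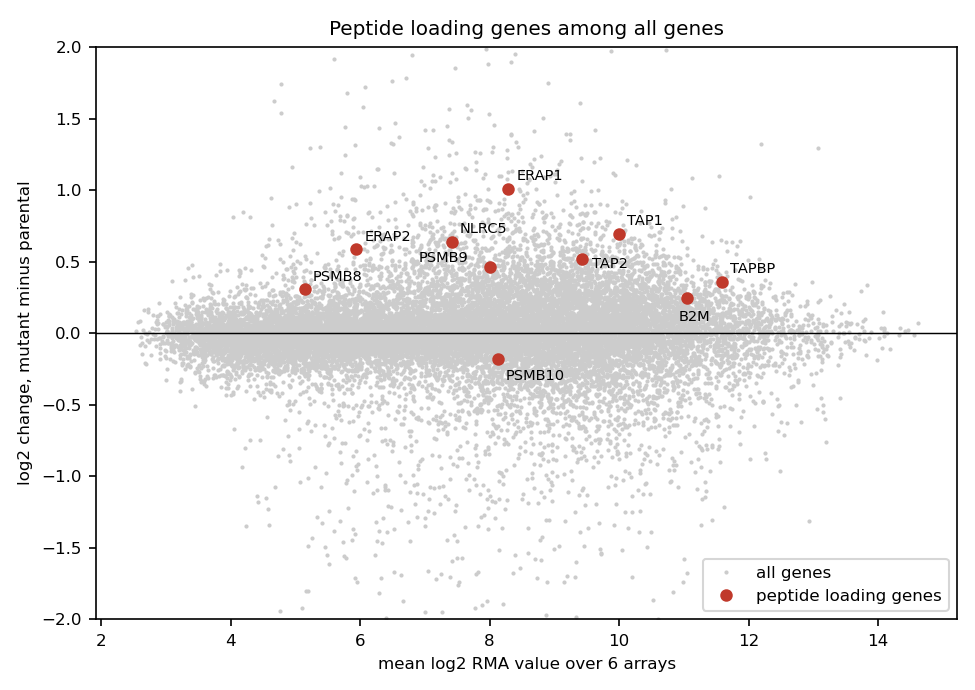
Log2 change (mutant minus parental) against the mean log2 value over 6 arrays, for all genes in grey and the peptide loading genes in red. The red points lie above 0 except PSMB10 at -0.18; 104 genes with changes beyond 2 log2 units are outside the plotted range.

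The promoters are shown because 9 of these 10 genes rose and many of them are known as interferon targets. RefSeq promoter windows (GRCh38.p14, from 250 bases before to 50 after the annotated start) were found for 9 of the 10 genes, all but NLRC5. A motif of the interferon response type (GAAA, any 2 bases, GAAA), searched on both strands with overlaps counted, occurred in 6 of these 9 windows. It occurred in 3.65% of all 27305 windows of the same length. The 6 windows belong to TAP1, TAP2, TAPBP, ERAP1, B2M and PSMB10, of which PSMB10 did not pass the test, while ERAP2, PSMB8 and PSMB9 rose and have no match there. The 250 bases before the start of 4 genes follow, from 5′ to 3′ on the strand of the gene, with matches on either strand in capitals. TAP1, TAPBP and B2M are given for their pairs of overlapping matches, and PSMB10 as the gene with a match that did not pass.

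TAP1, chr6:32853705-32853954, strand -: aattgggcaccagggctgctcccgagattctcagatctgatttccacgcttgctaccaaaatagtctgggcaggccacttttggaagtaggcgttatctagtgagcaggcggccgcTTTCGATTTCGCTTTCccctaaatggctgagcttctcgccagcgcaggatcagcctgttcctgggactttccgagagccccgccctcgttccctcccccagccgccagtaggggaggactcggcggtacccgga

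TAPBP, chr6:33314079-33314328, strand -: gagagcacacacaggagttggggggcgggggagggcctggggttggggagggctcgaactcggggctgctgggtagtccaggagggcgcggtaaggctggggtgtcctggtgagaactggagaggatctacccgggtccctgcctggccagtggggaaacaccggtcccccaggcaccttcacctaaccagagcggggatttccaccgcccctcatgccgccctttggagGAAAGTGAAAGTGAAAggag

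B2M, chr15:44711267-44711516, strand +: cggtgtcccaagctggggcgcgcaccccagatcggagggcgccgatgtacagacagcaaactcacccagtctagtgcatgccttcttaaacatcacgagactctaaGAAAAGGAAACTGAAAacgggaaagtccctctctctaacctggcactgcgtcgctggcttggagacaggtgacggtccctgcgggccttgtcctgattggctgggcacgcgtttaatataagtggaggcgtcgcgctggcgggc

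PSMB10, chr16:67936851-67937100, strand -: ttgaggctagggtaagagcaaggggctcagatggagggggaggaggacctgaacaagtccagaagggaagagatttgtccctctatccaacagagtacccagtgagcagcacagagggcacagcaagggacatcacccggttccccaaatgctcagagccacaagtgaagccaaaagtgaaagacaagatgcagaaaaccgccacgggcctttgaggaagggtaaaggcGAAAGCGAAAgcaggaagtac

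In TAP1 the matches run from base -134 to -119 relative to the start, on the opposite strand. In TAPBP they run from -20 to -5, in B2M from -144 to -129, and PSMB10 has a single match from -21 to -12. The match in TAP2, GAAAGCGAAA, lies from -58 to -49, and that in ERAP1, TTTCACTTTC, lies just past the start, from 3 to 12. A match is a description of letters and does not show that a factor binds. Among genes with a window, the motif was present for 4.30% of those called higher, 2.26% of those called lower and 2.90% of those not passed.

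A motif of the NF-kB type (GGG, any 5 bases, CC), searched on both strands like the other motifs, was found in 5 of the 9 windows (58.0% of all windows), the GC box GGGCGG in 5 (44.6%) and CCAAT in 4 (35.7%). The windows of TAP1 and PSMB9, which start in opposite directions, share 13 bases, and their CCAAT matches are the same site. The STAT type (TTC, any 3 bases, GAA) was found in 0 of the 9 and in 7.88% of all windows. Of CG dinucleotides, the sites of DNA methylation, the ERAP1 window holds 28, PSMB9 26, TAP2 24, TAP1 and B2M 22 each, PSMB8 17, TAPBP 12, PSMB10 7 and ERAP2 1, against a median of 14 over all windows. The methylation of these sites was not analysed here, and a relation of these counts to the changes was not tested.

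**Figure D3:**
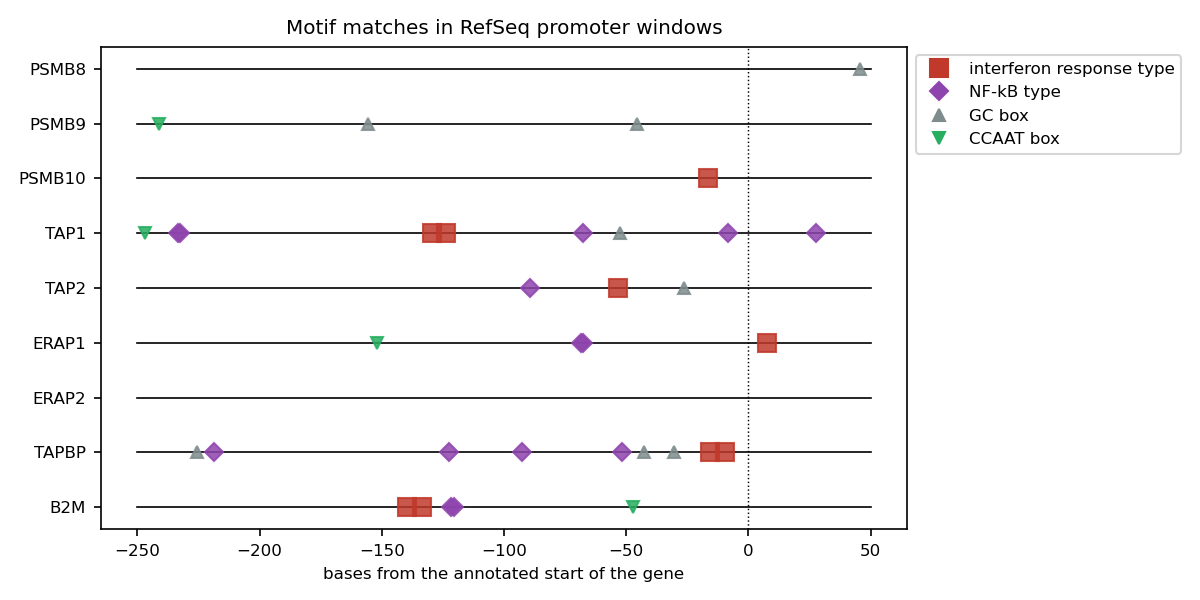
Positions of motif matches on either strand in the promoter windows of 9 peptide loading genes, in bases from the annotated start. Interferon response type matches (red squares) stand in 6 windows, in overlapping pairs in TAP1, TAPBP and B2M.

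NLRC5 (probe set 7995926), the coactivator of class I genes, had log2 values of 7.80, 7.72 and 7.68 in the mutant arrays, against 7.13, 7.03 and 7.13 in the parental arrays. The groups lay far apart relative to their spread. The increase was 0.64 ± 0.06 (log2 ± SE, n = 3 each), or 1.56-fold, with an adjusted p of 0.000989 in limma. Of the 12 other transcription factors of class I genes in a list chosen for comparison, 3 rose and 0 fell, with a median change of 0.11. For comparison, 14.6% of all genes and 20.9% of those averaging 7 or more were called higher. The genes that rose were NFKB1 (0.41, adjusted p = 0.0057), IRF1 (0.37, adjusted p = 0.0074) and RFX5 (0.32, adjusted p = 0.0084), all by limma. NFKB1 encodes an NF-kB subunit, IRF1 an interferon-induced activator of class I genes, and RFX5 the DNA-binding subunit of the complex through which NLRC5 reaches these promoters. The partners RFXAP (0.11, adjusted p = 0.429) and RFXANK (0.11, adjusted p = 0.332) did not pass, nor did CIITA, the class II counterpart of NLRC5, at -0.12 (adjusted p = 0.279).

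Among 9 measured genes of interferon signalling, 1 rose and 0 fell, with a median of 0.07. That count is near the 14.6% of all genes called higher (20.9% of those averaging 7 or more). The one increase was in IRF9, the DNA-binding subunit of the interferon-activated ISGF3 complex, with 9.26, 9.02 and 9.04 in mutant arrays, against 7.82, 7.99 and 8.37 in parental arrays. It rose by 1.05 ± 0.15 (log2 ± SE, n = 3 each; limma adjusted p = 0.0055). The receptor and kinase genes did not pass, with changes from -0.19 for TYK2 to 0.18 for IFNGR2.

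The catalytic subunits of the immunoproteasome did not move as a unit. PSMB9 (probe set 8118571), which takes the place of PSMB6, had 8.28, 8.27 and 8.15 in mutant arrays, against 7.68, 7.79 and 7.84 in parental arrays. It rose by 0.46 ± 0.07 (log2 ± SE, n = 3 each; limma adjusted p = 0.00575) with no overlap between groups. PSMB8 (probe set 8125500), which takes the place of PSMB5, had 5.24, 5.25 and 5.40 in mutant arrays, against 4.94, 5.11 and 4.91 in parental arrays. Its increase of 0.31 ± 0.08 had a limma adjusted p of 0.0433, close to the threshold. The PSMB8 probe set is dim, near the first quartile of all values (5.02), where RMA compresses differences. The call was lost when any 1 of the mutant arrays, parental replicate 1 or parental replicate 3 was left out (adjusted p from 0.0791 to 0.123), and the increase then lay between 0.25 and 0.33.

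PSMB10 (probe set 8002133), which takes the place of PSMB7, had 7.93, 8.15 and 8.03 in mutant arrays, against 8.12, 8.28 and 8.25 in parental arrays. The groups overlapped. The difference was -0.18, with a 95% interval from -0.37 to 0.01 and a limma adjusted p of 0.189. The upper end of that interval lies below the lower end of the interval of each of the other 9 genes, the lowest of which is 0.11 for B2M.

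The standard subunits that these 3 replace gave a different picture. PSMB5 (-0.04, 95% interval -0.19 to 0.12) and PSMB6 (0.04, interval -0.12 to 0.20) did not pass. PSMB7 rose by 0.38 ± 0.05 (log2 ± SE, n = 3 each; limma adjusted p = 0.0039), with 11.99, 12.03 and 12.07 in mutant arrays, against 11.62, 11.64 and 11.69 in parental arrays. PSMB7 lies on chromosome 9, where the 467 genes averaging 7 or more had a median change of 0.21, against 0.02 for all such genes. The part of that shift in the PSMB7 value was not tested. Within each array, PSMB8 minus PSMB5 was 0.34 higher in the mutant line and PSMB9 minus PSMB6 0.42 higher, while PSMB10 minus PSMB7 fell by 0.56. The mutant and parental arrays did not overlap in any of these 3 differences. Each had p = 0.1 in an exact two-sided permutation test of 3 against 3 arrays, the smallest p that design can give, and 0.12 after adjustment over the 6 pairs compared.

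Of 14 standard core genes 2 rose and 0 fell, with a median of 0.05. That count is near the 14.6% of all genes called higher (20.9% of those averaging 7 or more). Besides PSMB7 the gene that rose was PSMA6 (0.23, limma adjusted p = 0.0319). Of 15 measured genes of the 19S regulatory particle, which feeds proteins into the core, PSMC2 rose (0.26). ADRM1 (-0.29) and PSMD12 (-0.27) fell, and the median was 0.03. Over all genes 14.6% were called higher and 11.3% lower, and of those averaging 7 or more 20.9% and 15.6%. PSMD12 lies on chromosome 17, as does PSME3 below. There the 712 genes averaging 7 or more had a median change of -0.066. The part of that shift in their values was not tested. Both genes of the PA28 activator rose. PA28 is an interferon-induced cap of the core that is known to favour peptides for class I molecules. The subunit gene PSME2 had 10.57, 10.44 and 10.63 in mutant arrays, against 9.90, 9.97 and 9.99 in parental arrays. It rose by 0.59 ± 0.07 (log2 ± SE, n = 3 each; limma adjusted p = 0.0020). PSME1, the other subunit, rose by 0.48 ± 0.05 (limma adjusted p = 0.0018). In the list of 9 activators and assembly factors, 4 rose and 1 fell, with a median of 0.07. The shares for comparison are the same 14.6% and 11.3% of all genes (20.9% and 15.6% of those averaging 7 or more). PSMG1, an assembly factor, rose by 0.19 (limma adjusted p = 0.0461), PSME3, the nuclear activator, also rose (0.17, limma adjusted p = 0.0495), and the assembly factor PSMG2 fell (-0.55, limma adjusted p = 0.0018). POMP, the maturation factor of the immunoproteasome and the standard core, was at 0.02 and did not pass.

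**Figure D4:**
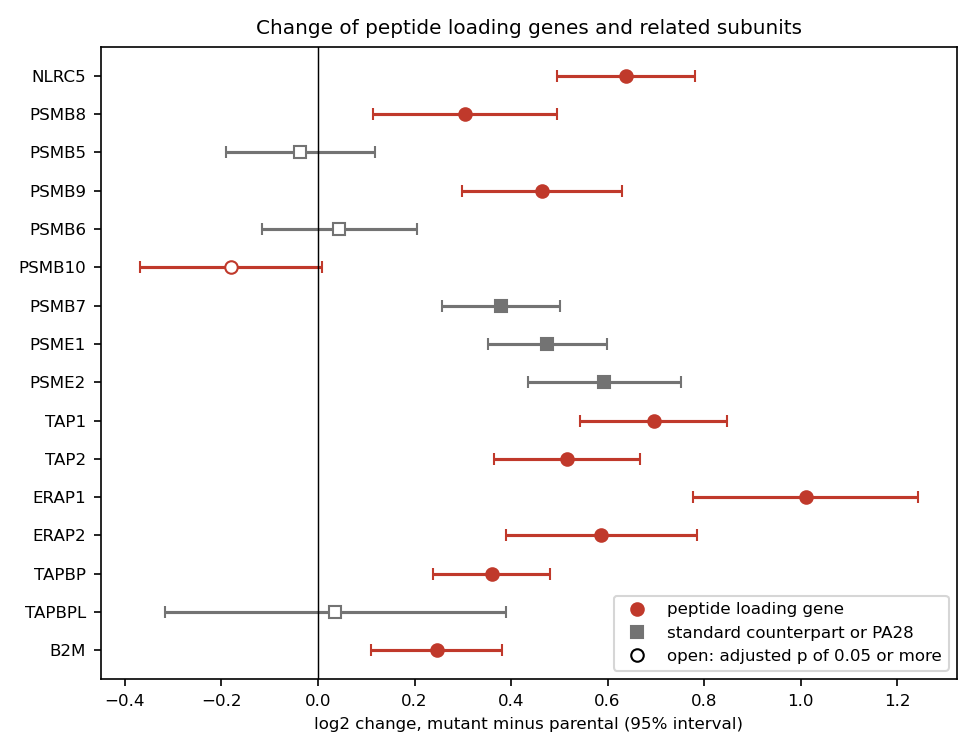
Log2 change (mutant minus parental) with its 95% interval, for the peptide loading genes (circles) and for their standard counterparts and the PA28 genes (squares); open symbols did not pass the test. PSMB8 and PSMB9 lie right of PSMB5 and PSMB6, whereas PSMB10 lies left of PSMB7.

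The transporter genes both rose. TAP1 (probe set 8125512) had 10.33, 10.32 and 10.40 in mutant arrays, against 9.66, 9.74 and 9.56 in parental arrays. The increase was 0.70 ± 0.06 (log2 ± SE, n = 3 each), or 1.62-fold, with a limma adjusted p of 0.000921. TAP2 (probe set 8180034) had 9.64, 9.62 and 9.78 in mutant arrays, against 9.15, 9.14 and 9.20 in parental arrays. It rose by 0.52 ± 0.06 (limma adjusted p = 0.00273), and neither gene's groups overlapped. Its other probe sets with distinct values gave 0.52 each, so the 3 measurements of TAP2 differ little, though probe sets for the same transcript can share probes. The increase of TAP1 exceeded that of TAP2 by 0.18 within arrays, with no overlap between mutant and parental arrays (exact two-sided permutation p = 0.1, and 0.12 over 6 pairs).

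Both trimming peptidase genes rose, and ERAP1 had the largest estimate of the 10 genes. ERAP1 (probe set 8113250) had 8.71, 8.80 and 8.86 in mutant arrays, against 7.77, 7.62 and 7.95 in parental arrays. It rose by 1.01 ± 0.10 (log2 ± SE, n = 3 each), or 2.01-fold, with a limma adjusted p of 0.00112. Only 0.766% of all genes had a larger increase. ERAP2 (probe set 8107044) had 6.10, 6.35 and 6.26 in mutant arrays, against 5.56, 5.66 and 5.72 in parental arrays. Its increase was 0.59 ± 0.08 (limma adjusted p = 0.00468), again without overlap. ERAP1 minus ERAP2 was 0.42 higher in the mutant arrays, all of them above the parental ones (exact two-sided permutation p = 0.1, and 0.12 over 6 pairs). Among 7 measured peptidases of the cytosol and endosomes that also act on such peptides, 3 rose and 1 fell, with a median of 0.20. Of all genes averaging 7 or more, 20.9% were called higher and 15.6% lower. BLMH (0.33), DPP3 (0.28) and NRDC (0.20) rose, and NPEPPS, the puromycin-sensitive aminopeptidase, fell by 0.60 (limma adjusted p = 0.0006). NPEPPS and BLMH both lie on chromosome 17. Of the 712 genes averaging 7 or more there, 88 were called higher and 231 lower, with a median change of -0.066. The part of that shift in the NPEPPS and BLMH values was not tested.

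At the loading step, TAPBP (probe set 8180166) had 11.74, 11.74 and 11.83 in mutant arrays, against 11.41, 11.39 and 11.42 in parental arrays. The increase was 0.36 ± 0.05 (log2 ± SE, n = 3 each; limma adjusted p = 0.00471), with no overlap. Its other distinct probe sets gave 0.36 and 0.32, both called. TAPBPL, the tapasin-related peptide editor, was at 0.04 with a 95% interval from -0.32 to 0.39, too wide to set it apart from TAPBP. TAPBP minus TAPBPL differed by 0.32 between the lines, with overlapping arrays (exact two-sided permutation p = 0.2, also over 6 pairs). Of 7 measured chaperone and folding genes of the endoplasmic reticulum, TAPBPL among them, 1 rose and 1 fell. Those counts are near the 14.6% of all genes called higher and 11.3% called lower (20.9% and 15.6% of those averaging 7 or more). HSPA5 rose (0.26, limma adjusted p = 0.0203) and HSP90B1 fell (-0.20, limma adjusted p = 0.0257). HSPA5 lies on chromosome 9, whose median change of 0.21 is given above, and the part of that shift in its value was not tested. CALR (0.03) and CANX (0.01), which bind class I chains during folding, did not pass.

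B2M (probe set 7983360) had 11.20, 11.13 and 11.18 in mutant arrays, against 10.85, 10.93 and 10.99 in parental arrays. The groups did not overlap, but the increase of 0.25 ± 0.06 (log2 ± SE, n = 3 each; limma adjusted p = 0.0284) was the smallest among the 9 called. It was lost when any 1 of the mutant arrays, parental replicate 1 or parental replicate 2 was left out (adjusted p from 0.0673 to 0.0913), and the increase then lay between 0.21 and 0.27.

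The related class I-like chains went both ways. Of 8 measured, 1 rose and 4 fell, with a median of -0.14, against 14.6% of all genes called higher and 11.3% called lower. MR1, which presents vitamin B metabolites to MAIT cells and needs B2M, had 8.63, 8.66 and 8.72 in mutant arrays, against 7.76, 7.70 and 7.83 in parental arrays. It rose by 0.91 ± 0.06 (log2 ± SE, n = 3 each; limma adjusted p = 0.0003). The stress ligand genes MICA (-0.52, limma adjusted p = 0.0061) and MICB (-0.22, limma adjusted p = 0.0275), whose products are seen by the NKG2D receptor, fell. HFE, an iron regulator that pairs with B2M, fell by 0.39 (limma adjusted p = 0.0139), and PROCR, the protein C receptor, fell by 0.68 (limma adjusted p = 0.0010).

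**Figure D5:**
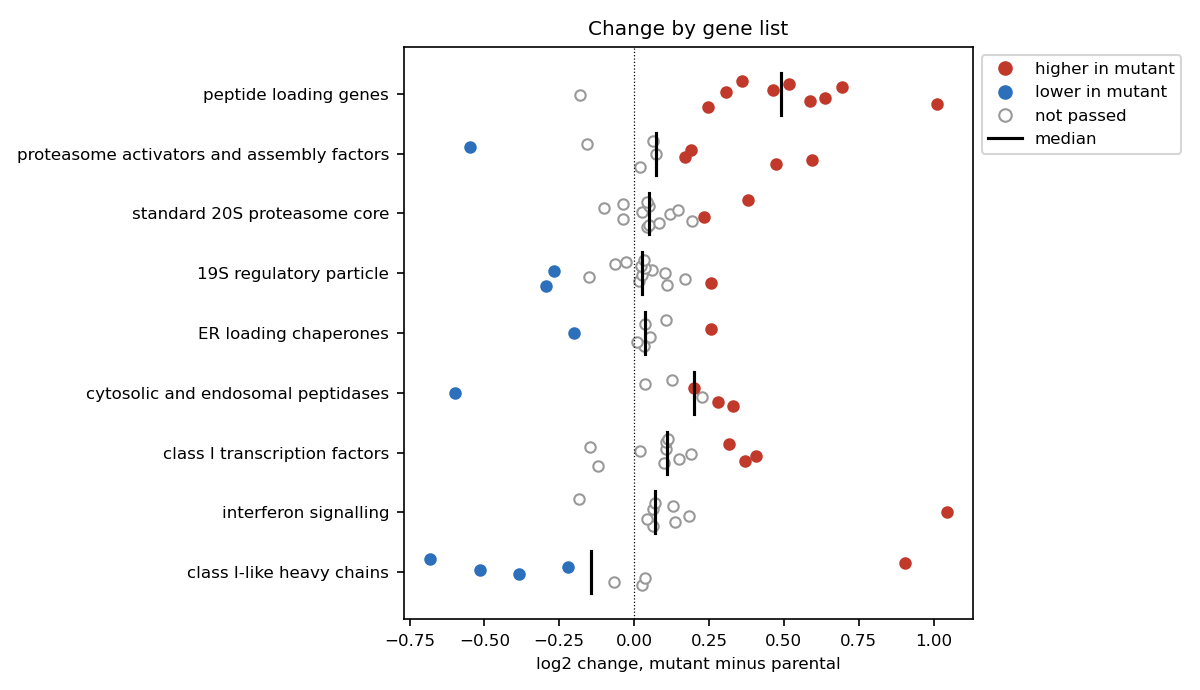
Log2 change (mutant minus parental) of each measured gene in the peptide loading list and in 8 related lists; bars mark medians and colours the calls. The peptide loading genes have a median of 0.49, while the medians of the related lists lie between -0.14 and 0.20.

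By position, 5 of the 10 genes lie on chromosome 6, and TAP2, PSMB8, TAP1 and PSMB9 follow each other there within the MHC. Measured genes on either side of that run, HLA-DOB (0.07, limma adjusted p = 0.803) and HLA-DMB (0.24, limma adjusted p = 0.320), did not pass. Around TAPBP, also on chromosome 6, PFDN6, RGL2, ZBTB22 and DAXX did not pass. ERAP1 and ERAP2 are neighbours on chromosome 5, and CAST, next to ERAP1, fell by 0.36 (limma adjusted p = 0.0119). Over the 24 other genes that stand within 2 measured places of the 10 in RefSeq gene order, 2 rose and 2 fell, with a median of 0.02, against 14.6% of all genes called higher and 11.3% called lower. Those that rose were PATL2 beside B2M (0.56) and CPNE2 beside NLRC5 (0.27), and PSME3IP1, also near NLRC5, fell (-0.22). Genes averaging 7 or more on chromosomes 5, 6, 15 and 16, which carry the 10 genes, had median changes of 0.02, 0.02, 0.03 and 0.01.

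The average deviation of the 10 genes from their parental means was 0.43, 0.47 and 0.49 in the mutant arrays, against -0.04, 0.00359 and 0.03 in the parental arrays. No mutant array alone carried the difference. Among 1319 genes outside these lists with a called change of at least 1.5-fold, the profile over 6 arrays most like that average (Pearson r of 0.999 each) was found for CA2, ABL1, CYP20A1, CCL5 and FABP6. With 2 groups of 3 arrays such a value mostly reflects the group difference, and 192 of these genes had r over 0.99. CCL5, a chemokine that attracts T cells, rose by 1.94, and CA2, a carbonic anhydrase, by 0.92. ABL1 lies on chromosome 9, whose median change of 0.21 is given above. The part of that shift in the ABL1 value was not tested.

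The arrays within a group correlated at 0.995 to 0.996 across probe sets, and arrays of different groups at 0.988 to 0.989. The means of 8 epithelial markers ran from 5.76 to 12.8 in mutant arrays and from 5.76 to 13.3 in parental arrays. EPCAM lay at 12.29 to 12.39 in mutant arrays and at 12.11 to 12.18 in parental arrays, and did not pass. Of the 8 markers 0 rose and 4 fell, among them KRT18 (-0.88) and CDH1 (-1.36). Over all genes 14.6% were called higher and 11.3% lower. Leukocytes express several of the peptide loading genes strongly. Of 11 measured leukocyte markers 1 was higher and 0 lower, against 14.6% of all genes called higher and 11.3% called lower. Their summed log2 values were 61.9 to 63.0 in mutant arrays and 61.3 to 61.7 in parental arrays. Every mutant array thus had a higher sum than every parental array. The marker that rose was CD8A (0.52), and CD4 (0.47, limma adjusted p = 0.058) did not pass though its groups did not overlap. The means of PTPRC, which defines leukocytes, were 3.73 in mutant and 3.72 in parental arrays, below the first quartile of all values. Of 8 fibroblast markers 1 was higher (PDGFRB, 0.27) and 0 lower, a count near the 14.6% of all genes called higher. The fibroblast sums were 44.1 to 44.8 in mutant arrays and 44.4 to 44.8 in parental arrays. The part of these markers in the results was not tested.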

How the data were processed

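Total RNA (100 ng) of 6 HCT116 samples was labelled for Affymetrix whole-transcript arrays, per the labels' protocols. The deposited log2 values, 1 per probe set and array, came from RMA and Partek according to the labels, as named per the submitters' processing notes; for their versions and a genome build the sources used here give nothing. RMA quantile-normalizes the arrays, so differences in total RNA are lost, and changes at dim probe sets are compressed. The median value per array was 6.88 to 6.93. Precision is limited by the number of arrays, and the table used here holds no detection calls.

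Values were used as deposited. Of 33297 probe sets, 19460 have 1 gene symbol in the platform annotation, 1754 have several and 12083 are not named. The 10 genes have 20 single-symbol probe sets, 14 after identical rows were counted once. Each of 18417 genes was represented by its brightest probe set. Mutant minus parental was tested with limma 3.58.1 (lmFit, eBayes, two-sided, R 4.3.3) over all probe sets, with Benjamini-Hochberg adjustment and a threshold of 0.05. Changes of known size were simulated for 50 probe sets per fold to see how many the fit recovers. It recovered 8% of 1.25-fold changes, 60% of 1.5-fold, 94% of 2-fold and 100% of 4-fold changes. A gene that did not pass may therefore still have changed by a small fold. Differences between 2 genes within arrays were tested by exact permutation (scipy 1.17.1, Python 3.11.15). No set test was run.

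The members, lists and tests were chosen with earlier results of these data known. Named were the 10 genes and their counterparts, up to 3 called genes per list and direction, class I transcription factors, neighbours that were called, and the 5 most similar profiles. PSME3, MICB, TYK2, IFNGR2, CALR, CANX, POMP, CD4, EPCAM, PTPRC, PFDN6, RGL2, ZBTB22, DAXX, HLA-DOB and HLA-DMB were named outside this rule, after their values were seen. Promoters are from RefSeq (GRCh38.p14).

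Alternatives covered renewed quantile normalization, array medians, minimum mean log2 values of 5 and 7, array weights, an ordinary linear model, an intensity trend, each array left out, the replicate number as a block, identical rows once, a test against a fold of 1.2, single-symbol probe sets only and averaging a gene's probe sets.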

Additional observations from a re-analysis of the deposited data

How the results depend on the processing

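The 9 increases kept their direction under each of the 18 alternatives in which the gene was tested, and PSMB10 stayed below 0 and uncalled in all of its 18. TAP1, ERAP1 and NLRC5 were called in every one. Requiring a fold of 1.2 in the test, stricter by construction, left 3 of the 10 genes called (ERAP1, TAP1 and NLRC5) and 1442 genes in all, against 9 and 4773. Under the other alternatives TAP2, TAPBP, ERAP2 and PSMB9 kept their calls. Over all alternatives B2M lost its call in 7 and PSMB8 in 10. Some of these leave 1 array out and so have fewer arrays, while others use all 6. The cause of the losses was not tested. With each array left out, the calls were 7 to 8 of the 10 genes and 3198 to 3627 genes in all. A minimum mean log2 of 7 removed ERAP2 and PSMB8 and left 7 of 8 called.

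Same-numbered arrays of the lines did not deviate together (correlations of 0.043, -0.013 and 0.003 across probe sets), so the values show no pairing by number. Whether same-numbered samples were handled together cannot be told from these correlations. With the replicate number as a block, 7 of the 10 genes and 3395 genes in all were called, B2M and PSMB8 (adjusted p = 0.0833 and 0.11) being lost.

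The 6 within-array differences between genes kept their sign under the alternatives applied to them. These were renewed quantile normalization, array medians, averaging a gene's probe sets and each array left out. Equal array medians cannot change a difference within an array. Averaging changes only pairs that hold a gene with several distinct probe sets. With each array left out, TAP1 minus TAP2 ran from 0.11 to 0.23 and TAPBP minus TAPBPL from 0.21 to 0.48. The dim signals of PSMB8 and ERAP2 limit what can be said of their size.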
